A study of Mus musculus with 6 samples.

Results

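Semaphorins, netrins, Slits, ephrins and neurotrophins, with the receptors they bind, were compared between Ebf2-positive and Ebf2-negative cells sorted from mouse bone marrow. The set was a list of 52 genes taken by name, 27 coding for ligands and 25 for receptors. Of the 52 genes, 50 had a probe set assigned to them alone and were measured, among 18193 genes tested in all. Ephb2 and Ntf3 were not analysed here. Both groups came from untreated adult wild-type C57BL/6 mice, and their cells were used fresh from the marrow. The cells were sorted as negative for the leukocyte antigen CD45, the erythroid antigen TER119 and the endothelial antigen CD31, and were split by the presence or absence of EBF2, a transcription factor that marks part of the marrow stroma. Each group had 3 samples, hybridised to 1 Affymetrix array each, from the RNA of 1000 or 2000 cells after amplification. The method by which EBF2 was detected, the number of animals and the arrays that had 1000 cells are each not given in the sources used here, so the p-values measure only a spread between samples that could be technical.

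These families were first known from the growing nervous system, where they steer axons. Semaphorins signal through plexins, often with a neuropilin as the binding partner. Netrins attract through DCC and neogenin and repel through the UNC5 receptors, and Slits repel through ROBO receptors. Ephrins are held on the membrane and bind Eph receptor kinases on touching cells, and the neurotrophins BDNF and NT-3 bind the receptor kinases TrkB and TrkC, encoded by Ntrk2 and Ntrk3. In bone marrow the same families are known from stromal, vascular, nerve and bone cells, and several act on osteoblasts, osteoclasts or blood stem cells.

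On the scale on which the authors deposited the values, 21 of the 50 measured genes were higher in Ebf2-positive cells and 3 were lower, and 26 did not pass the test. A call is an adjusted p below 0.05 in limma with Benjamini-Hochberg adjustment over all 18193 genes. Among all genes tested, 10.8% were called higher and 13.6% lower. The median difference, Ebf2-positive minus Ebf2-negative, was 1.0 on the log2 scale over the 50 genes and 0.07 over all genes. In 27 of the 50 genes every Ebf2-positive array lay above every Ebf2-negative array, and in 4 every one lay below, against 21.8% and 21.2% of all genes. Of the 21 higher genes, 14 differed by at least 2 log2 units and 6 by at least 4. Those 6 were Sema3c, Sema3e, Ntn1, Ntn4, Ntrk2 and Ntrk3. Of the 26 ligands 11 were higher, and of the 24 receptors 10. In bulk RNA, fewer cells of a type and less RNA per cell cannot be told apart.

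The level of the scale matters for the direction of these differences. The arrays carry 24 probe sets for poly-A control transcripts of a kind added to the RNA before labelling, and their mean log2 signal was 12.32 ± 0.23 (SD, n = 3) for Ebf2-positive and 9.85 ± 1.0 (SD, n = 3) for Ebf2-negative cells. Centring each array on them lowers every difference by 2.48. On that scale 6 of the 50 genes were called higher and 24 lower, where 1.25% of all genes were called higher and 85.7% lower. The 6 were Sema3c, Sema3e, Ntn1, Ntn4, Ntrk2 and Ntrk3. These had the largest differences towards Ebf2-positive cells before centring, and taking the same 2.48 off every gene cannot change that order. The shift of each array, which varied by 1.0 (SD) among Ebf2-negative samples, is shared by all genes. The limma calls on that scale do not allow for this shared error. Of the 21 genes higher on the deposited scale, 11 kept a positive sign and 10 took a negative one: Sema3d, Sema3f, Sema4c, Sema6d, Plxna1, Plxnd1, Nrp1, Robo1, Efnb2 and Ephb3. All differences below are on the deposited scale, and the order of the genes among themselves is the same on both.

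**Figure D1:**
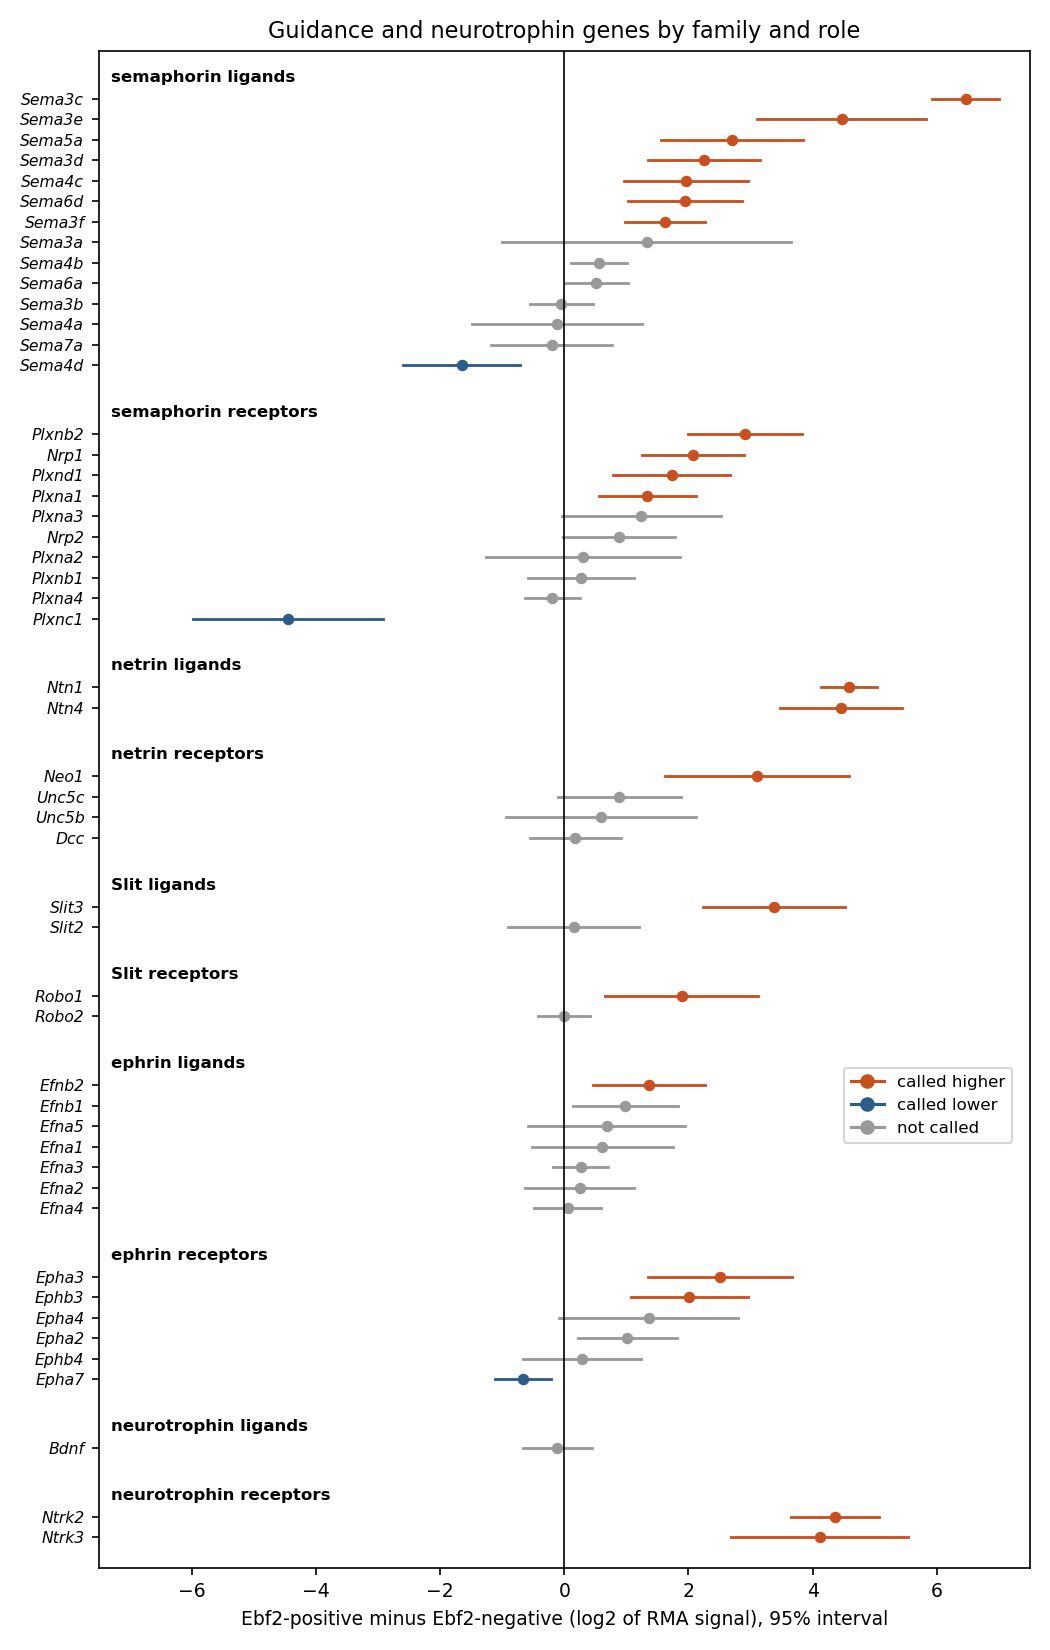
Difference of each of the 50 measured genes, Ebf2-positive minus Ebf2-negative, in log2 of the deposited signal, grouped by family and role; points are limma estimates and bars their 95% intervals. The 21 genes in orange were called higher and the 3 in blue lower on this scale; centring on the poly-A controls shifts every point left by 2.48, which takes 10 of the orange points below 0.

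The sorted groups differed in more than Ebf2. Ebf2 itself read 8.33 ± 0.41 in Ebf2-positive and 3.66 ± 0.49 in Ebf2-negative samples (log2, SD, n = 3 each; adjusted p = 0.000476, limma). Ptprc, which codes for CD45, read 6.68, 6.76 and 3.59 in Ebf2-positive and 8.78, 7.98 and 8.23 in Ebf2-negative samples, above the array median on all but 1 array although all were sorted as CD45-negative. It was not called (difference -2.65, adjusted p = 0.0698). Pecam1, which codes for CD31, read 2.48 to 4.15 over the 6 arrays, near the array median. Of 10 stromal markers, 8 were higher in Ebf2-positive cells, with list means of 11.49 to 12.01 against 8.0 to 8.96. Cxcl12 (mean 11.97 against 11.53, difference 0.44) and Lepr (7.57 against 8.21, difference -0.65) were not called and read well above the array median in both groups. All 11 erythroid markers were lower, with list means of 5.0 to 5.73 against 10.05 to 10.26. Leukocyte markers were lower in 4 of 8 (5.25 to 6.35 against 7.56 to 8.14) and megakaryocyte markers in 4 of 5 (4.86 to 5.23 against 6.23 to 7.20). Of 7 macrophage markers, with list means of 3.30 to 4.62 against 3.70 to 4.33, only 1 was lower. This was Mrc1, at 2.95, 3.58 and 3.01 against 5.59, 5.85 and 5.97. None of 5 B lineage markers was called (4.08 to 4.95 against 4.52 to 4.83). Endothelial markers averaged 5.50 to 6.91 against 4.36 to 5.73, and 2 of 8, Tek and Esam, were higher. Neuron markers averaged 2.61 to 2.83 against 2.42 to 2.46, and 6 of 7 lay at or below the median of the array on every array. The other, Stmn2, read 4.95, 4.36 and 4.61 against 4.01, 4.15 and 3.72, above the median throughout, and was not called (difference 0.68, adjusted p = 0.0834). The part of any of these cell types in the results below was not tested.

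**Figure D2:**
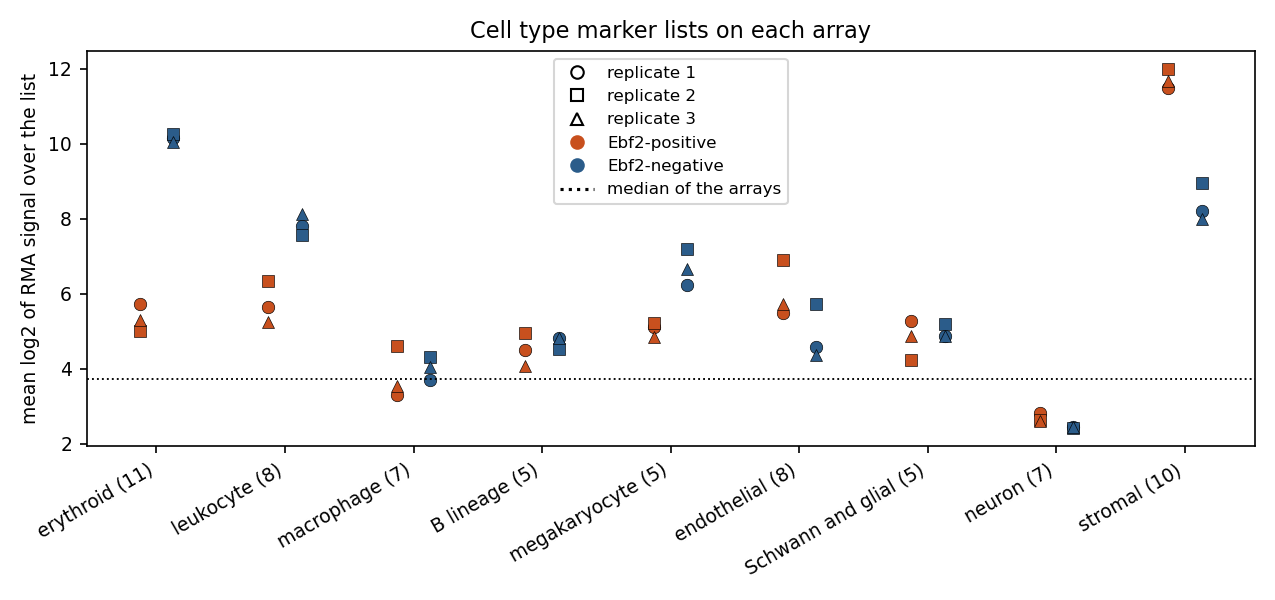
Mean log2 signal of each marker list on each of the 6 arrays; shape gives the replicate, colour the group, brackets the number of genes, and the dotted line the median of the arrays. Erythroid lists read 5.0 to 5.73 in Ebf2-positive and 10.05 to 10.26 in Ebf2-negative samples, stromal lists the reverse order, and the endothelial list was highest on replicate 2 of each group.

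Among the semaphorin ligands 7 of 14 were higher and 1 was lower in Ebf2-positive cells, with a median difference of 1.48. Of the 7, Sema3c, Sema3e and Sema5a kept their sign with poly-A centring and Sema3d, Sema3f, Sema4c and Sema6d did not. The class 3 semaphorins, which are secreted, held 4 of the 7. Sema3c, known as a guidance cue for neural crest and endothelial cells in the outflow tract of the heart, had the largest difference of the whole set and ranked 18 among the 18193 genes. It read 8.84, 9.45 and 9.33 on Ebf2-positive replicates 1 to 3, and 2.67, 2.84 and 2.70 on Ebf2-negative replicates 1 to 3, in log2 signal. All 3 negative arrays lay below their own median, the level at which about as many probe sets read higher as lower, and the groups were far apart. The difference was 6.47 (SE 0.22), with an adjusted p of 0.000116. For genes whose negative arrays were all below the median, a signal above background was not shown there, so their differences are not measured ratios of RNA and no fold is given; adding 16 intensity units before taking log2 gave 4.74 for Sema3c. The other Sema3c probe set was also higher, by 2.42.

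Sema3e, which binds plexin D1 without needing a neuropilin, read 6.30, 5.41 and 7.76 in Ebf2-positive replicates 1 to 3 and 2.11, 1.99 and 1.95 in the Ebf2-negative ones. The positive arrays spread over more than 2 log2 units, yet the lowest of them stood well above all negative arrays, which were all below their medians. The difference was 4.47 (SE 0.57), with an adjusted p of 0.00283, and 2.44 with the added 16 units. Another 2 of its 4 probe sets passed the test in the same direction, by 2.40 and 1.10. The set at 2.40 lay at or below the array median on 4 arrays, and that at 1.10 on all 6. The 250 bases before the RefSeq start sites of Sema3c, Sema3e and the lowest gene of the set, Plxnc1, are printed as examples. Ntn1, between Sema3c and Sema3e by difference, had no RefSeq window. How alike the printed stretches are was not measured. They are given 5′ to 3′ on the strand of the gene, from RefSeq on GRCm38.p6: chr5:17574566-17574815 on the plus strand for Sema3c, chr5:14025026-14025275 on the plus strand for Sema3e and chr10:94944846-94945095 on the minus strand for Plxnc1. Capitals mark the GC box, GGGCGG or CCGCCC.
Sema3c: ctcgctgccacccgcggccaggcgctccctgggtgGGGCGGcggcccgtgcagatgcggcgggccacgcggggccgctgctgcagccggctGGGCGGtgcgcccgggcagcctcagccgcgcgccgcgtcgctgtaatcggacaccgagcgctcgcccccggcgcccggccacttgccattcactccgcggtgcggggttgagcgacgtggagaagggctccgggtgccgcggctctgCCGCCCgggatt
Sema3e: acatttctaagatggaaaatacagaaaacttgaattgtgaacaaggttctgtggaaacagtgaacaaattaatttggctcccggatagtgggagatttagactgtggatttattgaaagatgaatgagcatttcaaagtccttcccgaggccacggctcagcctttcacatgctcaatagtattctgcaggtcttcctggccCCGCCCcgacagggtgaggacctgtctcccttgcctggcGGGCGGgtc
Plxnc1: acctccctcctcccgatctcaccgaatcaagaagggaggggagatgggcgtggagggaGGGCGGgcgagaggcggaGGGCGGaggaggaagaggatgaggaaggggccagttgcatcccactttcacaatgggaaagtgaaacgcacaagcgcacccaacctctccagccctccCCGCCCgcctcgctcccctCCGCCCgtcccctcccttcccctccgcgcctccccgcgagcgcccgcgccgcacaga
The Sema3c stretch held 39 CpG sites and 3 GC boxes, that of Sema3e 7 and 2, and that of Plxnc1 22 and 4, where the median over 32851 such stretches was 6 CpG sites. A GC box was found in 13 of the 17 higher genes that had such a stretch. It was found in 35.4% of all RefSeq genes with one, whether or not the arrays measured them. The share in uncalled genes of the set was not determined, and this motif was chosen after the values were seen. Enrichment was therefore not tested. The core of the motif bound by EBF proteins, TCCC and GGGA separated by any 2 bases, which reads the same on both strands, was looked for in windows of 300 bases, 250 before and 50 after the start. It was found in 2 of the 44 genes of the set with a window, Sema4b and Plxnb1, neither of which was called, and in 287 of 27025 genes in all (1.06%). None of the 17 higher genes with a window held it there.

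Sema3d, another secreted class 3 semaphorin, read 5.33, 6.21 and 6.08 in Ebf2-positive replicates 1 to 3 and 4.23, 3.57 and 3.07 in the Ebf2-negative ones. The groups did not overlap, and the difference was 2.25 (SE 0.38; adjusted p = 0.00728), but -0.23 with poly-A centring. Sema3f, a ligand that acts mainly through neuropilin-2, read 9.84, 9.36 and 9.41 against 7.49, 8.0 and 8.25. Every positive array was above every negative array, by a difference of 1.62 (SE 0.27; adjusted p = 0.00692), which became -0.86 with poly-A centring. The probe set used for Sema3f is of a type whose probes can match other transcripts; with such sets left out the difference was 0.70 and was not called (adjusted p = 0.0722). Sema3a, a class 3 semaphorin known to protect bone by acting on osteoblasts and osteoclasts, was not called. It read 3.08, 3.09 and 6.64 against 2.56, 2.82 and 3.43, so that replicate 3 of the Ebf2-positive cells alone stood apart, and the difference of 1.33 had an interval from -1.0 to 3.66.

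Of the membrane-bound semaphorins, Sema5a, a class 5 semaphorin with thrombospondin repeats, read 6.70, 6.99 and 6.29 in Ebf2-positive replicates 1 to 3 and 4.10, 4.80 and 2.99 in the Ebf2-negative ones. The groups were clearly apart, with a difference of 2.70 (SE 0.47; adjusted p = 0.00865). Sema4c, the ligand of plexin B2, read 7.90, 7.36 and 7.78 against 6.07, 6.28 and 4.82. It was higher by 1.96 (SE 0.41; adjusted p = 0.0169), with no overlap, and was not called without Ebf2-positive replicate 1 (adjusted p = 0.0513). Sema6d, a class 6 semaphorin that binds plexin A1 and is known from the heart and from bone and immune cells, read 9.10, 9.77 and 9.42 against 7.13, 8.27 and 7.06. It was higher by 1.94 (SE 0.38; adjusted p = 0.0127), and it was no longer called without Ebf2-negative replicate 1 (adjusted p = 0.0511) or 3 (0.0528). Sema4d, made by leukocytes and osteoclasts and known to restrain osteoblasts through plexin B1, was the only ligand of the set that was lower. It read 4.86, 5.22 and 5.87 against 6.32, 7.09 and 7.51, a difference of -1.66 (SE 0.39; adjusted p = 0.0255), with no overlap. The other 2 probe sets of the gene differed by 0.46 and -0.01, and with the mean of all 3 the difference was -0.40 and not called (adjusted p = 0.201). Sema4d was also not called without Ebf2-positive replicate 1 (adjusted p = 0.0687) or 2 (0.0607) and without Ebf2-negative replicate 2 (0.0814) or 3 (0.0881). The other 5 semaphorin ligands that were not called differed little by the probe sets that represent them. Sema4b differed by 0.56 and Sema6a by 0.52, both without overlap between the groups. Sema3b differed by -0.05, Sema4a by -0.12 and Sema7a by -0.20. However, the other 2 Sema3b probe sets were called higher, by 2.08 and 1.76.

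**Figure D3:**
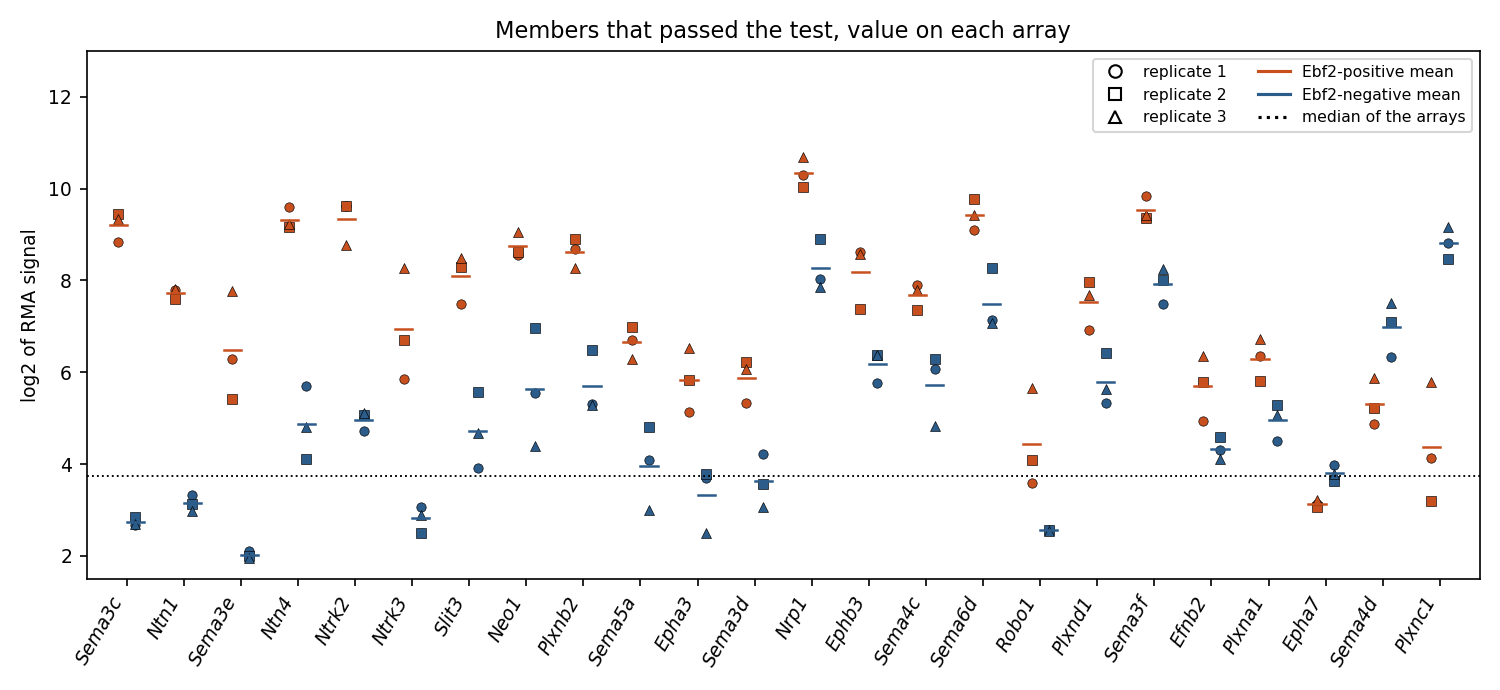
Log2 signal of the 24 genes called higher or lower on each of the 6 arrays, ordered by difference; shape gives the replicate, colour the group, short bars the group means and the dotted line the median of the arrays. The groups do not overlap in any of the 24 genes; Sema3c, Ntn1, Sema3e, Ntrk3 and Robo1 lie below the array median on all 3 Ebf2-negative arrays, and for 10 of the 21 higher genes the sign turns with poly-A centring.

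Among the semaphorin receptors 4 of 10 were higher and 1 was lower, with a median difference of 1.06. Of the 4, only Plxnb2 kept its sign with poly-A centring, at 0.44. Plxnb2, the receptor of class 4 semaphorins, read 8.68, 8.89 and 8.27 in Ebf2-positive replicates 1 to 3 and 5.30, 6.49 and 5.30 in the Ebf2-negative ones. The lowest positive array was well above the highest negative array, and the difference was 2.91 (SE 0.38), or 7.54-fold, with an adjusted p of 0.00318. Nrp1, the neuropilin that binds Sema3a, Sema3c and Sema3d and also serves as a co-receptor for VEGF, read 10.29, 10.02 and 10.69 against 8.04, 8.90 and 7.85. It was higher by 2.07 (SE 0.34; adjusted p = 0.00664), and 3 of its 4 probe sets were called higher, by 2.07 to 2.66. With poly-A centring the difference was -0.41.

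Plxnd1, the receptor of Sema3e and best known from blood vessels, read 6.91, 7.97 and 7.68 in Ebf2-positive replicates 1 to 3 and 5.33, 6.41 and 5.63 in the Ebf2-negative ones. The groups did not overlap, and each had its highest value on replicate 2, the array with the highest endothelial marker mean of its group. The difference was 1.73 (SE 0.39; adjusted p = 0.0214), and it was 1.81 (adjusted p = 0.0359) with both arrays numbered 2 left out. Plxnd1 was not called without Ebf2-positive replicate 2 (adjusted p = 0.0521) or 3 (0.0564) and without Ebf2-negative replicate 1 (0.0743) or 3 (0.0813). Plxna1, a receptor for Sema6d and, with neuropilins, for class 3 semaphorins, read 6.35, 5.80 and 6.72 against 4.51, 5.29 and 5.07. It was higher by 1.34 (SE 0.32; adjusted p = 0.0271), with no overlap, and the call held only without replicate 2 of either group, the others giving adjusted p-values of 0.0686 (without Ebf2-positive replicate 1), 0.0636 (Ebf2-positive replicate 3), 0.0855 (Ebf2-negative replicate 1) and 0.0786 (Ebf2-negative replicate 3). With the replicate number as a block its adjusted p was 0.0519.

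Plxnc1, the receptor of Sema7a and known from leukocytes, had the largest difference towards the Ebf2-negative cells. It read 4.12, 3.19 and 5.79 in Ebf2-positive replicates 1 to 3 and 8.81, 8.48 and 9.16 in the Ebf2-negative ones. Even the highest positive array was below the lowest negative array by more than 2 log2 units. The difference was -4.45 (SE 0.64; adjusted p = 0.00425), and a second probe set of the gene was lower by 3.86. These were 2 of its 6 probe sets, and the others were not called. Beside Plxnc1, all 11 erythroid, 4 of 5 megakaryocyte and 4 of 8 leukocyte markers were also lower in Ebf2-positive cells. Of 7 macrophage markers 1 was lower, and of 5 B lineage markers none was called. The part of such cells in the value of Plxnc1 and of Sema4d was not tested. The other 5 receptors were not called. Nrp2, the neuropilin for Sema3f, differed by 0.89 and Plxna3 by 1.24, with adjusted p-values of 0.145 and 0.151. Plxna2, Plxnb1 and Plxna4 differed by 0.30, 0.27 and -0.19. In Plxna2 both arrays numbered 2 stood above the other 4, at 7.18 and 6.96.

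Set side by side, 6 semaphorin pairs had both partners higher: Sema3c with Nrp1 (6.47 and 2.07) and with Plxnd1 (6.47 and 1.73), Sema3d with Nrp1 (2.25 and 2.07), Sema3e with Plxnd1 (4.47 and 1.73), Sema4c with Plxnb2 (1.96 and 2.91), and Sema6d with Plxna1 (1.94 and 1.34). With poly-A centring no receptor of these pairs other than Plxnb2 kept a positive sign. Sema4d with Plxnb2 was the pair whose partners were called in opposite directions (-1.66 and 2.91). Sema7a was not called while its receptor Plxnc1 was lower (-0.20 and -4.45). Sema3f was higher while Nrp2 was not called (1.62 and 0.89).

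Both netrin ligands were higher, and 1 of the 4 netrin receptors; all 3 kept a positive sign with poly-A centring. Ntn1, the secreted netrin that guides commissural axons and is also known as a stromal factor for blood stem cells, read 7.78, 7.59 and 7.81 in Ebf2-positive replicates 1 to 3 and 3.32, 3.12 and 2.98 in the Ebf2-negative ones. The arrays of each group lay close together, and the negative arrays were all below their medians. The difference was 4.59 (SE 0.19), with an adjusted p of 0.00014, and 3.20 with the added 16 units. The other Ntn1 probe set lay at or below the array median on all 6 arrays, differed by 0.32 and was not called. Ntn4, a netrin of basement membranes that binds laminin, read 9.59, 9.16 and 9.23 against 5.70, 4.12 and 4.80. Here the negative arrays were above their medians but far below the positive ones, by a difference of 4.45 (SE 0.41), or 21.9-fold, with an adjusted p of 0.000956. The other Ntn4 probe set differed by 0.86 and was not called, so this fold holds for the brighter set only. Neo1, which codes for neogenin, the receptor shared by netrins and the repulsive guidance molecules, read 8.56, 8.61 and 9.06 against 5.55, 6.96 and 4.40. The negative arrays spread over more than 2 log2 units but none reached the positive arrays. The difference was 3.11 (SE 0.62; adjusted p = 0.0134), which was not called without Ebf2-negative replicate 1 (adjusted p = 0.052). Neo1 was also the gene of the set with probe sets called in both directions: a second one was higher by 2.22, and another read 4.45 ± 0.12 against 5.72 ± 0.30 (SD, n = 3 each) and was lower by 1.27. The last, like the set that represents Neo1, is of a type that can match more than 1 transcript; with such sets left out the difference was 2.22 (adjusted p = 0.0325).

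The repulsive receptors Unc5b and Unc5c were not called, with differences of 0.58 (adjusted p = 0.558) and 0.88 (0.181); without Ebf2-positive replicate 1 Unc5c was called, at 1.30 (adjusted p = 0.0324). Unc5b read 5.10, 7.07 and 6.37 against 5.88, 6.34 and 4.57, so that the groups overlapped and replicate 2 was the highest in each. Dcc, the classical attractive netrin receptor of neurons, differed by 0.18 (interval -0.55 to 0.91; adjusted p = 0.715). As pairs, Ntn1 and Ntn4 with Neo1 had both partners higher, while Ntn1 with Dcc, Unc5b or Unc5c had only the ligand called.

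Of the 2 Slits, Slit3 was higher and Slit2 was not called, and of the 2 ROBO receptors Robo1 was higher and Robo2 was not called. Slit3, a secreted protein known to act on vessels and bone cells, read 7.49, 8.30 and 8.48 in Ebf2-positive replicates 1 to 3 and 3.90, 5.56 and 4.68 in the Ebf2-negative ones. The groups did not overlap, and the difference was 3.38 (SE 0.48), or 10.4-fold, with an adjusted p of 0.00404; it stayed above 0 with poly-A centring, at 0.90. Slit2 read 4.81, 3.44 and 4.22 against 3.52, 4.64 and 3.86, overlapping throughout, with a difference of 0.15 (interval -0.91 to 1.21).

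Robo1, which codes for a receptor that relays Slit repulsion, read 3.59, 4.09 and 5.65 in Ebf2-positive replicates 1 to 3 and 2.56, 2.56 and 2.55 in the Ebf2-negative ones. All negative arrays were below their medians and nearly equal, whereas the positive arrays ranged from near the median to well above it. The difference was 1.89 (SE 0.51; adjusted p = 0.0406), and -0.59 with poly-A centring. Robo1 was not called without any Ebf2-negative array (adjusted p = 0.114, 0.105 and 0.118 for replicates 1 to 3) and without Ebf2-positive replicate 2 (0.0586). Robo2 lay at or below the array median on all 6 arrays, at 1.73 to 1.92. Slit3 with Robo1 was the Slit pair with both partners higher.

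Of the 7 ephrins 1 was higher, Efnb2, and of the 6 measured Eph receptors Epha3 and Ephb3 were higher and Epha7 lower; with poly-A centring Efnb2 and Ephb3 turned negative and Epha3 was at 0.03. The median differences were 0.61 for ephrins and 1.19 for receptors. Efnb2, the transmembrane ephrin of arterial endothelium that is also known from osteoclasts, read 4.95, 5.79 and 6.34 in Ebf2-positive replicates 1 to 3 and 4.30, 4.59 and 4.10 in the Ebf2-negative ones. The groups were close but did not overlap, with a difference of 1.36 (SE 0.38; adjusted p = 0.0423). The call held only without Ebf2-positive replicate 1. The gene was not called without Ebf2-positive replicate 2 (adjusted p = 0.0927) or 3 (0.0777), without Ebf2-negative replicates 1 to 3 (0.12, 0.0798 and 0.14), and with the replicate number as a block (0.0611). Of the other Efnb2 probe sets, 1 was higher by 1.67, and the rest differed by 0.15 and 0.10 and were not called. Efnb1, the other transmembrane ephrin, known from the control of bone formation, differed by 0.98 (interval 0.13 to 1.83) without overlap and was not called (adjusted p = 0.0948).

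None of the 5 ephrin-A genes, whose products are tethered by a lipid anchor, was called by limma, and none had an unadjusted p below 0.05; the lowest adjusted p was 0.358, in Efna3. Their differences ran from 0.05 for Efna4 to 0.68 for Efna5. Efna3 and Efna4 lay at or below the array median on all 6 arrays, whereas Efna1 read 4.81, 5.89 and 5.0 against 4.34, 5.50 and 4.01, highest on replicate 2 in both groups.

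Of the receptors, Epha3, a kinase that binds ephrin-A5 and other ephrin-A proteins, read 5.14, 5.83 and 6.52 in Ebf2-positive replicates 1 to 3 and 3.70, 3.77 and 2.49 in the Ebf2-negative ones. Every positive array was above every negative array, and the difference was 2.51 (SE 0.48), with an adjusted p of 0.012. Ephb3, a receptor of ephrin-B proteins, read 8.61, 7.38 and 8.58 against 5.76, 6.38 and 6.38. It was higher by 2.02 (SE 0.39; adjusted p = 0.0126), with replicate 2 the lowest of the positive arrays, still above all negative ones. Epha7, a receptor known mainly from the nervous system, read 3.12, 3.06 and 3.21 against 3.98, 3.63 and 3.78. The Ebf2-positive values lay below their array medians of 3.735 to 3.803, and the Ebf2-negative ones were near theirs. The difference was -0.67 (SE 0.19; adjusted p = 0.0443). It was not called without any array in turn, with adjusted p-values from 0.0706 to 0.137, nor with the replicate block (0.0976), and its sign turned with the mean of its 4 probe sets (0.12).

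Epha2, known from epithelium and vessels, was not called at a difference of 1.02 (adjusted p = 0.0715), though the groups did not overlap; without Ebf2-positive replicate 3 it was called, at 1.36 (adjusted p = 0.0117). Epha4, which binds ephrins of both classes, read 6.04, 3.77 and 3.97 against 3.15, 3.13 and 3.42, with 1 positive array far above the rest, and was not called at 1.36 (adjusted p = 0.159). Ephb4, the receptor of Efnb2 on venous endothelium, differed by 0.29 (adjusted p = 0.644). Efnb2 with Ephb3 was the ephrin pair with both partners higher on the deposited scale (1.36 and 2.02). Epha3 was higher while the ephrins paired with it here were not called.

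Both neurotrophin receptors were higher and the measured neurotrophin was not called. Ntrk2, which codes for TrkB, the receptor of BDNF, read 9.61, 9.61 and 8.76 in Ebf2-positive replicates 1 to 3 and 4.71, 5.07 and 5.12 in the Ebf2-negative ones. The groups were more than 3 log2 units apart at their nearest. The difference was 4.36 (SE 0.29), or 20.5-fold, with an adjusted p of 0.000412, and 1.88 with poly-A centring. Ntrk3, which codes for TrkC, the receptor of NT-3, read 5.85, 6.69 and 8.26 against 3.07, 2.49 and 2.89. All negative arrays were below their medians, and the positive arrays spread over more than 2 log2 units above them. The difference was 4.12 (SE 0.59), with an adjusted p of 0.00435; it was 2.61 with the added 16 units and 1.64 with poly-A centring. Bdnf lay at or below the array median on all 6 arrays, at 2.94 to 3.57, with a difference of -0.11 (interval -0.67 to 0.45).

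Each of the Trk genes had 8 probe sets, of which 2 were called higher and 4 lay at or below the array median on all 6 arrays. For Ntrk2 the 2 differences were 4.36 and 5.10, and for Ntrk3 4.12 and 0.93. The Ntrk3 set at 0.93 was itself among the 4 that lay at or below the array median on all 6 arrays. Which transcripts of these genes the sets match was not analysed here. Beside them, of 5 Schwann and glial markers none was called higher by limma and 1, Mbp, was lower (2 and 2 at an unadjusted p below 0.05), with list means of 4.23 to 5.26 against 4.88 to 5.21, and of the 7 neuron markers 6 lay at or below the array median throughout.

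**Figure D4:**
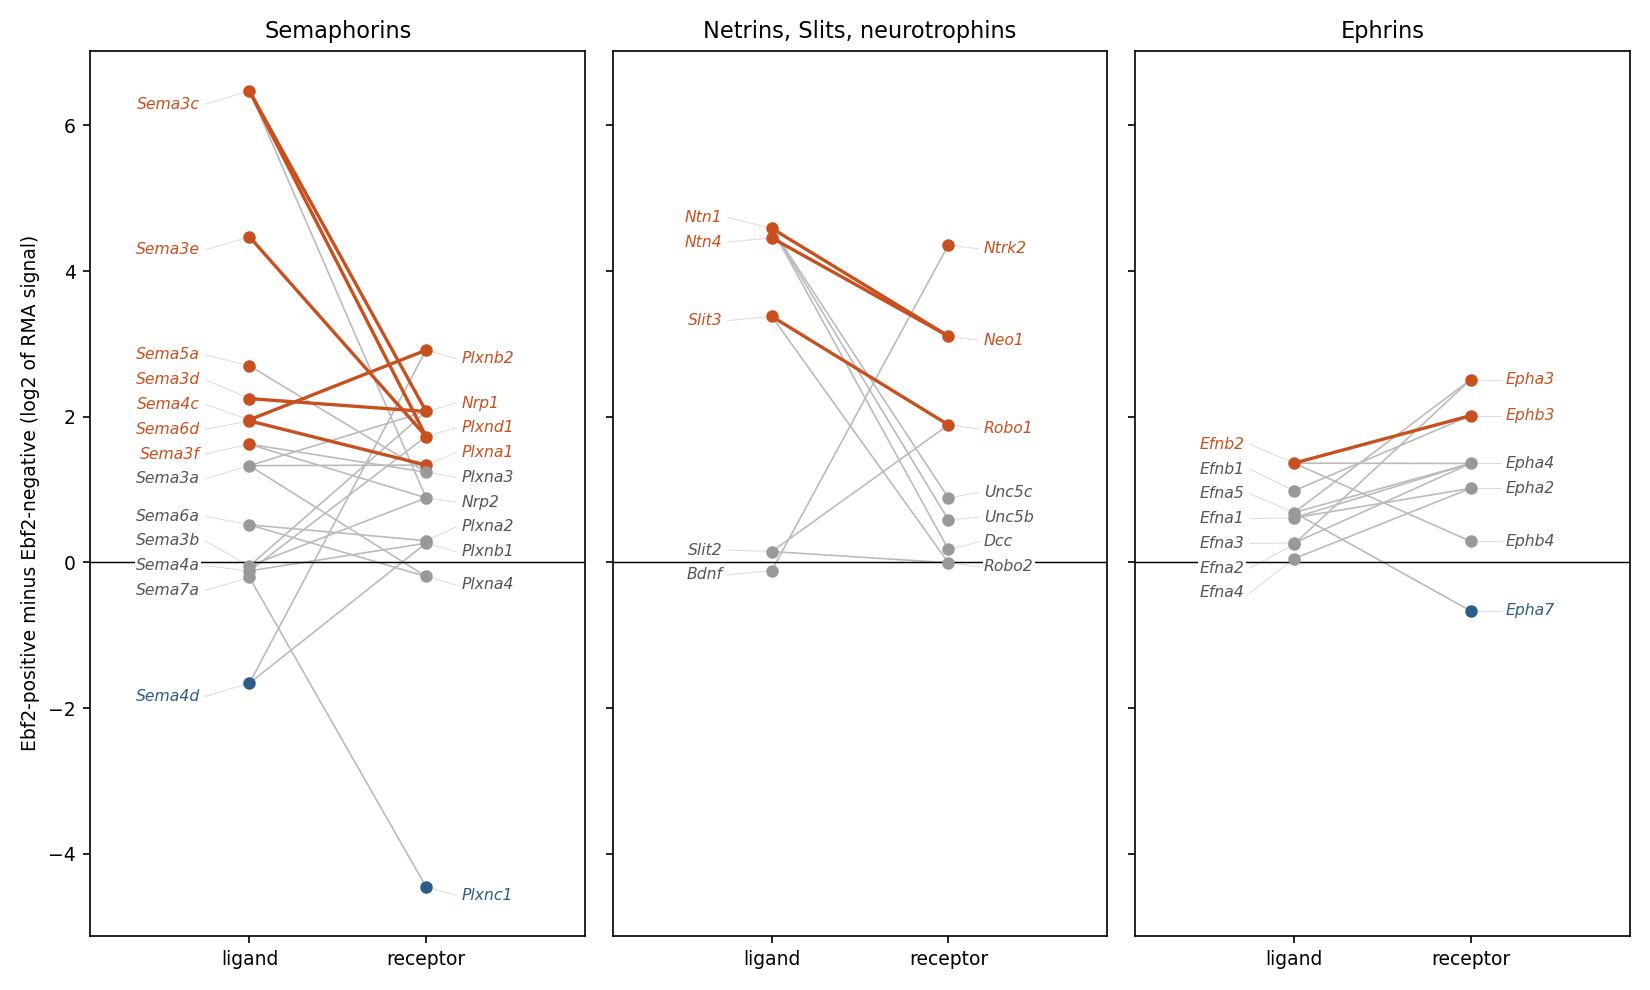
Difference of each ligand joined to those of its receptors, Ebf2-positive minus Ebf2-negative in log2 signal, for the 44 pairs with both genes measured; orange points were called higher, blue lower, and thick orange lines join pairs with both called higher. The 10 such pairs lie in all families but the neurotrophins; with poly-A centring every point drops by 2.48, and the receptors Nrp1, Plxnd1, Plxna1, Robo1 and Ephb3 fall below 0.

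Over all families, 46 ligand and receptor pairs were listed from known binding, and 44 had both genes measured. In 10 pairs both were higher, involving 9 ligands and 7 receptors, since partners are shared. The ligand alone was higher in 10, and in 9 the receptor was higher and the ligand not called. With poly-A centring none of the 10 pairs had both partners called higher, and Ntn1 and Ntn4 with Neo1 alone had both above 0. Neither was called in 11, and the other 4 included a lower partner. The pairs share genes and are not independent, and both partners were measured in the same mixed populations, so the counts do not say whether 1 cell carries both.

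The choice of probe set mattered for some genes. The 50 genes had 140 probe sets, of which 31 were called higher and 4 lower when all probe sets were tested, against 6.39% and 8.76% of all probe sets, and 50 lay at or below the array median on all 6 arrays. Of the 16 higher genes with at least 2 probe sets, 6 had at least 2 called higher. In Ntrk3, counted among the 6, the second set lay at or below the array median on all 6 arrays. No further set was called in Ntn1 (0.32), Ntn4 (0.86), Sema3d (0.37), Plxna1 (0.28), Sema3f (0.54 and 0.70) or Robo1 (0.18 and 0.74). The same held for Sema5a (0.12 to 2.14), Sema6d (-0.05 to 0.46) and Epha3 (-0.11 to 1.51). Averaging all probe sets of a gene brought the difference down by over 1.5 times in 17 of the 19 called genes with more than 1, of which 15 were still called; Sema4d (-0.40) and Epha7 (0.12) were not. Sema3b, a class 3 semaphorin not called by its brightest probe set, had 2 dimmer sets called higher, by 2.08 and 1.76. Epha4 likewise had a dimmer set called higher by 1.26. Robo1, Efnb2 and Epha7 were not called by the sets that represent them when the adjustment ran over all probe sets.

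**Figure D5:**
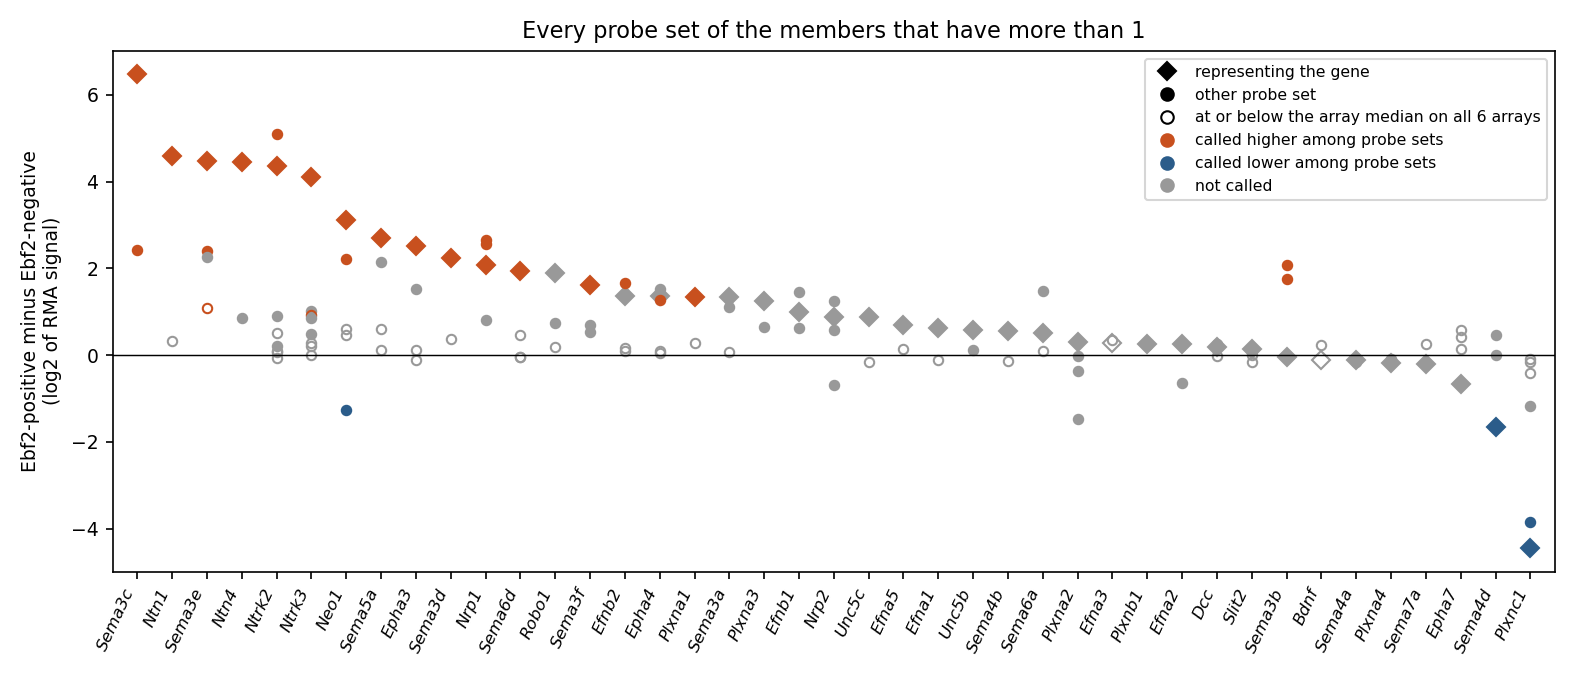
Difference of every probe set of the 41 genes with more than 1, Ebf2-positive minus Ebf2-negative in log2 signal; diamonds are the probe sets that represent the gene, open symbols lie at or below the array median on all 6 arrays, and colour gives the call among all probe sets. Both Sema3c sets and 3 of 4 Nrp1 sets are orange, Neo1 has 2 orange sets and 1 blue, and all points drop by 2.48 with poly-A centring.

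Other genes of these families and of the signalling behind them were taken from 2 lists. Of 35 further ligands, receptors and co-receptors measured, 8 were higher and none lower in limma (15 and 0 at an unadjusted p below 0.05), with a median difference of 0.47, where 10.8% of all genes were higher and 13.6% lower (16.2% and 19.7% at an unadjusted p below 0.05). With poly-A centring none was higher and 25 were lower, against 1.25% and 85.7% of all genes. Rgma and Rgmb, the repulsive guidance molecules that bind neogenin, were higher by 2.65 (adjusted p = 0.00158) and 3.32 (0.00688), and Flrt2, a ligand of UNC5 receptors, by 3.72 (0.00944). Sema3g was higher by 1.67 (adjusted p = 0.00666). Ngfr, the p75 receptor shared by the neurotrophins, was higher by 1.66 (adjusted p = 0.0208) and Sorcs2, a partner of p75, by 1.92 (0.0333). With 1 array left out at a time, Ngfr was called only without Ebf2-positive replicate 2 or 3, with adjusted p-values up to 0.077 otherwise, and Sorcs2 only without Ebf2-positive replicate 1, with values up to 0.111.

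Of 43 genes that carry the signals inside the cell, 12 were higher and 1 was lower, with a median difference of 0.67, against the same 10.8% and 13.6% of all genes; with poly-A centring 3 were higher and 22 lower, against 1.25% and 85.7%. Dpysl2 and Dpysl3, collapsin response mediators that act downstream of semaphorins on the cytoskeleton, were higher by 4.0 (adjusted p = 0.000672) and 3.33 (0.0092). Mical1, an oxidase that takes actin filaments apart downstream of plexins, was higher by 3.93 (adjusted p = 0.000523). Ablim1, an actin-binding protein, and the exchange factors Farp1 and Farp2 were higher by 4.61 (adjusted p = 0.00291), 4.20 (0.00223) and 2.81 (0.0165). Adam10, a protease that sheds ephrins and other membrane proteins, was lower by 1.28 (adjusted p = 0.0209); it was not called without Ebf2-positive replicate 1 (0.0572) or Ebf2-negative replicate 1 (0.0534) or 3 (0.0756).

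Some genes of the set varied with the replicate number as well. In 10 of the 50 (20.0%) the highest value of each group was on replicate 2, with ties not counted, as in 13.2% of all genes and 7 of 8 endothelial markers. The 10 were Sema3c, Sema5a, Sema6d, Sema7a, Plxna2, Plxnb2, Plxnd1, Unc5b, Unc5c and Efna1. With both arrays numbered 2 left out, a setting added after seeing the data, 17 genes of the set were called higher and 1 lower. Of all 18193 genes, 1580 were higher and 1642 lower in that setting. Sema3d (adjusted p = 0.0614), Robo1 (0.133), Efnb2 (0.145) and Epha3 (0.0539) were then not called. Of the 21 higher genes, 14 kept their call whichever single array was left out.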

How the data were processed

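Total RNA of 6 sorted samples, 3 for each group, was measured on Affymetrix MOE430_2 arrays. The authors deposited 1 RMA intensity per probe set and array, on a linear scale; RMA is named in the submitters' processing notes, and for its version and annotation, nothing is given in the sources used here. The deposited values were taken to log2 without an offset. Array medians lay between 12.94 and 13.96 in the deposited intensity units; with 3 arrays per group, their number limits the precision.

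Of 45037 probe sets that are not controls, 34945 named 1 gene in the platform annotation, 932 several and 9160 none. For each of the 18193 genes the brightest such probe set, by its mean over all 6 arrays, was used; levels of different probe sets were not compared. The 2-sided group difference, with no covariates, was fitted by lmFit and eBayes of limma 3.58.1 (R 4.3.3) and adjusted over all genes by Benjamini-Hochberg, threshold 0.05; the code was tested on simulated data. Values are log2 means ± SD; SE and 95% intervals are limma's.

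The 52 genes and all lists were chosen with earlier results of these data known. Every listed gene is accounted for: those called with all 6 values, the others by value or range, and of the other lists up to 6 called in each direction with the largest differences. Promoter sequences came from RefSeq (GRCm38.p6), matched by symbol; 44 members of the list had a window. Alternatives covered centring, further quantile normalization, filters on dim genes, the probe set rule, an offset of 16, the variance model, array weights, a minimum difference of 1, the replicate block and leaving out arrays. Arrays with the same replicate number deviated from their group means with correlations of 0.058, 0.106 and 0.029, so the numbers were not taken to pair the samples.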

Additional observations from a re-analysis of the deposited data

How the results depend on the processing

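With poly-A centring the counts called higher and lower were 6 and 24 for the guidance and neurotrophin genes, 0 and 25 for the other family genes and 3 and 22 for the signal transduction genes, where 227 of all 18193 genes were called higher and 15596 lower. These calls do not allow for the error of the shift, which all genes share. The same 2.48 was taken off every gene. This includes Efna3, Efna4, Robo2 and Bdnf, which lay at or below the array median on all 6 arrays. A negative value of such a gene does not show less RNA. Differences then turned from positive to negative in Sema3a (-1.15), Sema3d (-0.23), Sema3f (-0.86), Sema4b (-1.92), Sema4c (-0.52), Sema6a (-1.96), Sema6d (-0.54), Plxna1 (-1.14), Plxna2 (-2.18), Plxna3 (-1.24), Plxnb1 (-2.21), Plxnd1 (-0.75), Nrp1 (-0.41), Nrp2 (-1.59), Unc5b (-1.90), Unc5c (-1.59), Dcc (-2.30), Slit2 (-2.33), Robo1 (-0.59), Efna1 (-1.87), Efna2 (-2.23), Efna3 (-2.21), Efna4 (-2.43), Efna5 (-1.79), Efnb1 (-1.50), Efnb2 (-1.12), Epha2 (-1.46), Epha4 (-1.12), Ephb3 (-0.46), Ephb4 (-2.19), Sorcs2 (-0.55), Sema3g (-0.81), Ngfr (-0.81) and Pecam1 (-1.92). Requiring a difference above 1 gave 8 and 1 guidance and neurotrophin genes, 3 other family genes called higher, and 6 and 0 signal transduction genes. Of all 18193 genes, 775 were then higher and 658 lower. With the mean of all probe sets 1 guidance gene and 2 signal transduction genes were lower, where 2580 of all 18193 genes were. Signs then turned in Sema3b (1.26), Sema7a (0.026), Plxna2 (-0.39), Slit2 (-0.0065), Efna2 (-0.20), Epha7 (0.12) and Bdnf (0.062). Without probe sets open to cross-matching Epha7 was at 0.43. With an offset of 16, Robo1 (0.85, adjusted p = 0.147) and Efnb2 (0.92, 0.0763) were not called. Centring on the 75th percentile turned Sema3b (0.072), Sema4a (0.0043), Robo2 (0.12) and Bdnf (0.0073), and Efna4 turned with array weights (-0.0074), quantile normalization (-0.032) and median centring (-0.0035). Signal transduction genes called lower numbered 2 with 75th percentile centring, without genes below the 25th or 50th percentile, with an intensity trend and with array weights. Of 18193 genes, 2179 were lower with 75th percentile centring, 2432 with the intensity trend and 2614 with array weights. Without genes below the 25th percentile 2620 of 13645 were lower, and without those below the 50th 2414 of 9097. Without genes below the 50th percentile 4 other family genes were higher, where 1656 of 9097 genes were. The cause of these changes was not tested.

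Leaving out arrays gave 15 to 20 genes of the set higher and 1 to 2 lower, 5 to 9 other family genes higher, and 7 to 15 signal transduction genes higher and 0 to 3 lower. Of all 18193 genes, 1294 to 1877 were higher and 1396 to 2471 lower with arrays left out. Near-zero differences changed sign in this way in Bdnf (-0.24 to 0.080), Dcc (-0.11 to 0.44), Efna4 (-0.10 to 0.27), Ephb4 (-0.056 to 0.68), Plxna2 (-0.23 to 0.87), Plxnb1 (-0.093 to 0.66), Robo2 (-0.036 to 0.057), Sema3b (-0.21 to 0.050), Sema4a (-0.63 to 0.54), Sema7a (-0.50 to 0.25) and Slit2 (-0.18 to 0.83).

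With the replicate number as a block, 19 genes of the set were higher and 2 lower, 7 other family genes were higher, and 12 signal transduction genes were higher and 1 lower. Of all 18193 genes, 1884 were then higher and 2335 lower. The replicate numbers were not taken as a pairing, and 5 of the 6 samples correlated best with their own number, a hint from the data only.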

Other observations

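Several genes of the set lie next to or near each other in the genome, in the order of RefSeq on GRCm38.p6. On chromosome 5, Sema3d and Sema3a are neighbours, followed after other genes by Sema3e and, after further genes, by Sema3c. The differences of these 4 were 2.25, 1.33, 4.47 and 6.47 on the log2 scale, and Sema3a was not called. Between Sema3a and Sema3e, Speer3 differed by 0.55 and was not called. Between Sema3e and Sema3c, the calcium channel subunit gene Cacna2d1 was higher by 2.32 (adjusted p = 0.00618, limma), while Hgf, which codes for hepatocyte growth factor, differed by -0.24 (0.44) and Pclo, a gene of the synapse, by 0.27 (0.321). On chromosome 3 the 3 neighbours Efna1, Efna3 and Efna4 differed by 0.61, 0.27 and 0.05, and none was called. On chromosome 9 Sema3b and Sema3f are separated by Gnai2, Slc38a3 and Gnat1, none of which was called (0.48, 0.32 and 0.38), and Sema3f was higher by 1.62. With poly-A centring, 2.48 is taken off each of these values.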
